A study of Mus musculus with 5 samples.

Results

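The STAT and SOCS genes of developing mouse T cells are described here across 5 sorted thymocyte populations. All probe sets that the array annotation assigns to Stat3, Stat4, Stat5a, Stat5b, Stat6, Cish, Socs1, Socs2 and Socs3 were taken, which gave 12 probe sets for 9 genes among the 8251 genes of the array. The 5 populations were sorted from thymuses of male C57BL6 mice aged 5 weeks, 10 mice in all, with no treatment or other genotype named, and whether animals were pooled is not stated. The series as a whole concerns how Notch1 and Notch3 act in the thymus at steady state. Of the 4 lineage-negative, CD24 positive populations, DN1 (double negative 1) was CD44 high without CD25 and DN2 was CD44 high with CD25. DN3 was CD44 low with CD25, and the pre-double positive (preDP) cells were CD44 low without CD25. These 4 came from thymocytes enriched for blasts. The double positive (DP) cells carried CD4 and CD8 and came from total thymocytes, so stage and cell source cannot be told apart for DP.

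Cytokine receptors of this pathway lack kinase activity of their own and use JAK kinases bound to their tails. Once activated, the JAKs phosphorylate STAT proteins, which pair, enter the nucleus and bind DNA. SOCS proteins, of which Cish is one, are induced by the same signals and act back on the receptor and the kinase. In the thymus the best known input is interleukin 7, which keeps double negative cells alive and dividing and signals mainly through STAT5.

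Each population was read on 1 array, so there were no replicates, no test could be made and no p-value is given. Values are signals on a linear scale, and a signal of 130.4, the median of all gene probe set values, served as the floor below which a value was not read as a level. A gene was called when its signals, with lower values set to the floor, stood at least 2-fold apart between 2 arrays. Where the lower value was at or below the floor, the fold is a lower bound and is written as at least N-fold. A measure of error inside the arrays came from genes read by several probe sets. Between the 2 brightest of such a gene the log2 ratios differed with an SD of 0.53 between DN2 and DN1, of 0.44 between DN3 and DN2, of 0.43 between preDP and DN3, and of 0.59 between DP and preDP. Only genes whose 2 probe sets were above the floor on both arrays entered, so error of signals at or below the floor is not covered. This spread, called the probe set spread below, leaves out error shared by a whole array and variation between sorts or mice. A difference is described as beyond it when it exceeds 1 SD. In bulk RNA, fewer cells of a type and less RNA per cell cannot be told apart.

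Among the sort markers Il2ra, which encodes CD25, was above the floor in DN2 and DN3 alone, Cd24a was high throughout and Cd4 reached 5096 in DP, whereas Cd44 was below the floor on all 5 arrays. The CD8 genes were also above the floor before DP: Cd8a at 755 in DN1 and 2031 in preDP, and Cd8b1 at 342 in DN1, 319 in DN3 and 6242 in preDP, against 20020 and 28020 in DP. The DN1 array stood apart in its markers of other cell types. Of 15 myeloid markers 13 were above the floor in DN1, with a summed signal of 128353 against 859 to 3092 on the other arrays. For 11 dendritic cell markers, all above the floor in DN1, the sums were 136883 against 1706 to 3897. For 11 B-lineage markers, 10 of them above the floor in DN1, they were 61527 against 5055 to 10329. Ighm alone gave 52870 of that DN1 sum and 3009 to 8496 elsewhere. H2-Aa, H2-Ab1, H2-Eb1 and Cd74, at 19185 to 45515 each, made up most of the dendritic sum in DN1. By gene, DN1 was the highest array for 12 of 13 myeloid, 10 of 11 dendritic and 9 of 10 B-lineage markers measured. Csf3r, Ccr9 and Vpreb1 were highest in DP. The sum of 8 T-lineage markers was 3595 in DN1 and 19572 to 78436 elsewhere. No marker of these lists was at 0 on any array, and their part in the DN1 values below was not tested. Some of these markers also differed between DN2 and DN3, as given with that comparison.

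**Figure D1:**
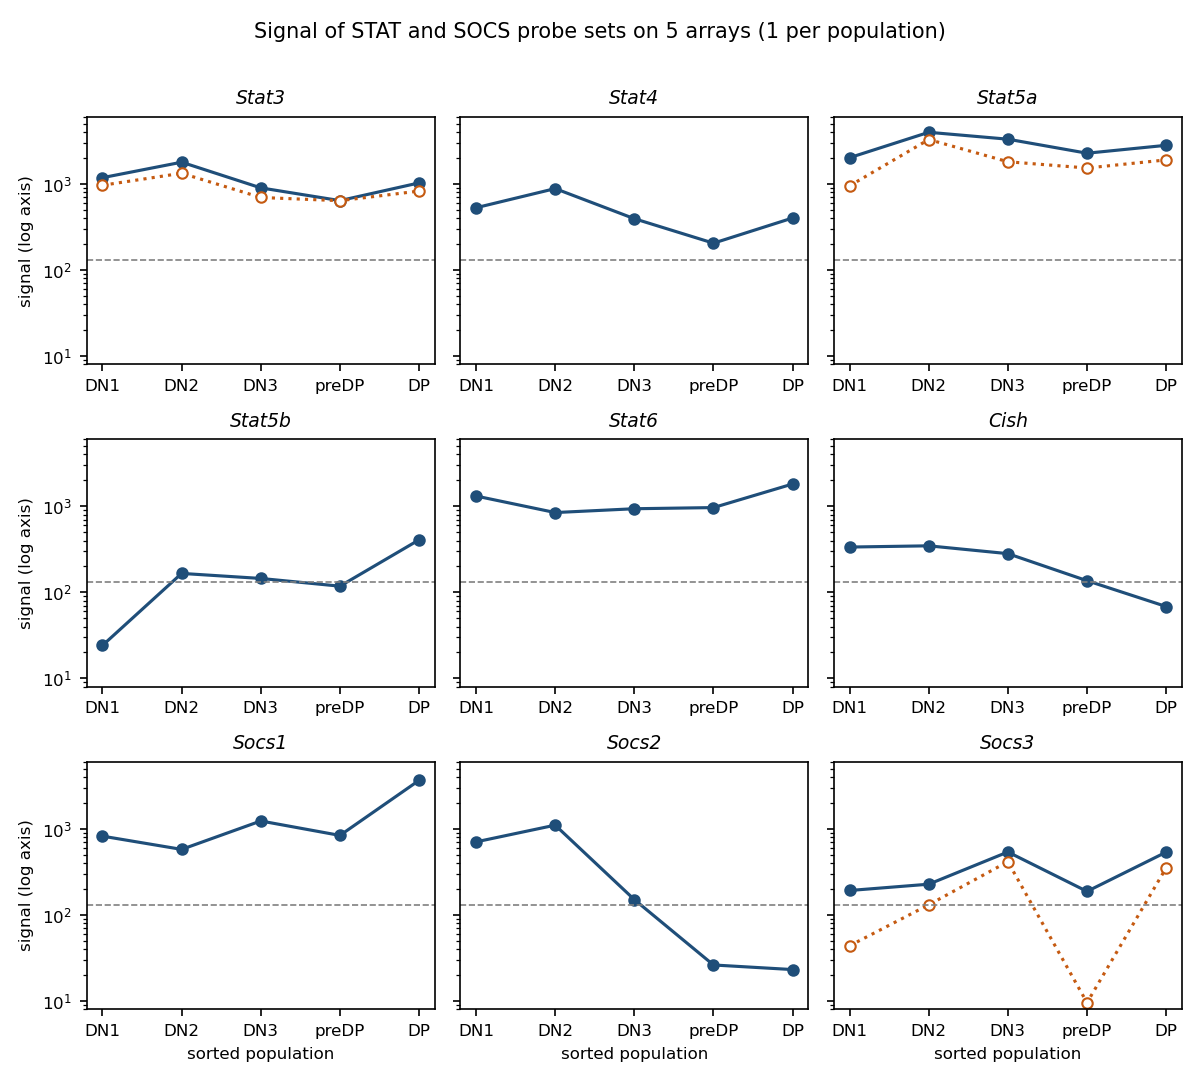
Signal of each STAT and SOCS probe set (y axis, log scale, linear signal units) in the 5 sorted populations (x axis, 1 array each). Filled points joined by solid lines are the probe set used for the gene, open points joined by dotted lines a second probe set, and the dashed line is the floor of 130.4. Stat3, Stat4 and Socs2 are highest in DN2, Stat5b and Socs1 in DP, Cish is level from DN1 to DN3, and Socs3 has peaks of nearly equal height in DN3 and DP.

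By their highest array, most of the 9 genes were highest in DN2 or in DP, and Socs3 was high in both DN3 and DP. The top array stood beyond the probe set spread above the next for Stat3, Stat4 and Socs2 (DN2) and for Stat5b and Socs1 (DP). It did not for Stat5a, Stat6, Cish and Socs3, nor for Stat3 by its second probe set. The second probe set of Stat5a did place DN2 beyond the spread above DP, the next array. No single top array is read for any of these genes. Of the 8 members at least 2-fold apart between their highest and lowest array, 4 were highest in DN2 (Stat3, Stat4, Cish and Socs2), 3 in DP (Stat5b, Stat6 and Socs1) and 1 in DN3 (Socs3). None was highest in DN1 or preDP. Among all 2510 genes that varied this much, 25.3% peaked in DN1, 11.6% in DN2 and 10.0% in DN3, while 20.5% peaked in preDP and 32.7% in DP. The panels of signal by population show these shapes, which are given gene by gene below, first for the STAT genes and then for their inhibitors.

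Stat3 encodes the STAT used by receptors that share the gp130 chain and by the interleukin 10 and interleukin 21 receptors. Its signal was 1179 (DN1), 1785 (DN2), 898 (DN3), 638 (preDP) and 1026 (DP), well above the floor throughout. DN2 was the highest array and preDP the lowest, 2.80-fold apart. A second probe set gave 963, 1328, 694, 637 and 824 in the same order, with the same highest and lowest arrays, 2.08-fold apart. Between DN2 and DN3 Stat3 was 1.99-fold lower by the first and 1.91-fold by the second probe set, both just short of a call. The values of DN1, DP and DN3 lay closer together than the probe set spread, so no order among them is read.

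Stat4, which encodes the STAT of the interleukin 12 receptor, had signals of 527 (DN1), 881 (DN2), 393 (DN3), 204 (preDP) and 401 (DP). Its highest and lowest arrays were again DN2 and preDP, 4.31-fold apart. It was 2.24-fold lower in DN3 than in DN2 and a further 1.93-fold lower in preDP, then 1.96-fold higher in DP. Only the first of these steps was a call, and the other 2 exceeded the probe set spread. With the floor at the 65th percentile, which lies above the preDP signal, their log2 ratios of -0.95 and 0.97 shrank to -0.22 and 0.24, within it. The values in DP and DN3 differed by 1.02-fold, within that spread. Stat3 was the second nearest of 4930 other gene profiles to that of Stat4, with a root mean square difference of 0.21 in log2 signal over the 5 arrays after centring. Lpp was nearest at 0.15 and Cxxc5 came next after Stat3 at 0.21.

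Stat5a and Stat5b encode the closely related STATs that act downstream of the interleukin 7 and interleukin 2 receptors. Stat5a had a signal of 2014 (DN1), 3974 (DN2), 3304 (DN3), 2270 (preDP) and 2805 (DP). DN2 stood 1.97-fold above DN1, which is also the whole range of the gene. By this probe set no neighbouring values in the order of its levels differed by more than the probe set spread. The second probe set gave 948, 3275, 1806, 1528 and 1898, and put DN2 3.45-fold above DN1. There DN2 stood 1.73-fold above DP, the next array, and preDP 1.61-fold above DN1, both beyond that spread. Both probe sets thus placed Stat5a highest in DN2 and lowest in DN1, but they differ on whether the step passes 2-fold. The suffixes of these probe sets, _i_at and _f_at, mark a shortage of unique probes and probes shared by a family of sequences, so signal of other genes, Stat5b among them, cannot be told apart in them.

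Stat5b was close to the floor before DP. Its probe set gave 24.1 (DN1), 166 (DN2), 145 (DN3), 118 (preDP) and 407 (DP). DN1 and preDP were below the floor, and DN2 and DN3 just above it. In DP the gene was at least 3.12-fold higher than in preDP and 2.81-fold higher than in DN3. With a higher floor at the 65th percentile, a signal of 339, the first of these log2 ratios was 0.27 in place of 1.64, and the DP call was lost. Stat5a, in contrast, was well above the floor on all 5 arrays.

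Stat6 encodes the STAT of the interleukin 4 receptor. Its signal was 1315 (DN1), 845 (DN2), 936 (DN3), 965 (preDP) and 1815 (DP). DN2, DN3 and preDP lay within 1.14-fold of each other, and DP was 2.15-fold above DN2. The step from preDP to DP was 1.88-fold, beyond the probe set spread but short of a call. DP and DN1, the highest and the next array, were 1.38-fold apart, within that spread. The 3 nearest profiles to that of Stat6 were those of Dtx2, Tmem30a and Man1a, with root mean square differences of 0.05, 0.07 and 0.08.

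Among the inhibitors, Cish encodes the founding SOCS family protein, which binds phosphorylated receptor tails and is a known target of STAT5. It had signals of 336 (DN1), 347 (DN2), 281 (DN3), 136 (preDP) and 68.3 (DP). The first 3 arrays were level within the probe set spread. The gene was then 2.06-fold lower in preDP than in DN3, at a value only just above the floor, and it was below the floor in DP. That step had a log2 ratio of -1.05, which became -0.998 under quantile normalisation and -0.83 with a constant of 50 added in place of the floor, both short of a call. Uchl1, Ripor2 and Renbp had the nearest profiles, with root mean square differences of 0.11, 0.15 and 0.16.

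Socs2 encodes an inhibitor best known for restraining growth hormone receptor signalling, and it too is a target of STAT5. At the main floor it had the largest difference of any member. Its signal was 703 (DN1), 1099 (DN2), 150 (DN3), 26.1 (preDP) and 23.0 (DP). It was high in both CD44 high gates, close to the floor in DN3 and below it in preDP and DP. In DN3 it was 7.33-fold lower than in DN2, the 16th largest difference in that direction among the 4894 genes measured in that comparison. The log2 ratio of -2.87 became -1.70 with the floor at the 65th percentile, which is still a call. It was then smaller in size than the 2.13 of Socs1 in DP against preDP, whose signals lay above that floor. The nearest profiles were those of Tspan4 (0.17), Nrgn (0.33) and Kit (0.34), the last of which encodes the stem cell factor receptor of progenitors. From DN1 to DP, Kit gave 1166, 1347, 254, 123 and 36.8.

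Socs1 encodes the inhibitor that blocks JAK kinase activity directly and is known to limit signals of common gamma chain cytokines in thymocytes. Its signal was 819 (DN1), 575 (DN2), 1229 (DN3), 835 (preDP) and 3647 (DP). DN2 was the lowest array, though within the probe set spread of DN1. DN3 stood 2.14-fold above DN2, preDP lay 1.47-fold below DN3, and DP was 4.37-fold above preDP. The last of these was the 86th largest difference in that direction of 4857 genes measured. DP stood 2.97-fold above DN3, the next array in order, whereas preDP and DN1 did not differ beyond the probe set spread. The nearest profile was that of Btg2, an antiproliferative gene, at 0.15, with signals of 2402, 1476, 4057, 2347 and 12533. Ube2h and Art1 followed at 0.17 and 0.18.

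Socs3 encodes an inhibitor that binds gp130 and JAK kinases together. The probe set used gave 191 (DN1), 226 (DN2), 536 (DN3), 187 (preDP) and 534 (DP). The gene was thus high in DN3 and DP at nearly the same level, and low in the other 3 populations. Its steps were 2.37-fold up from DN2 to DN3, 2.87-fold down to preDP and 2.86-fold up again to DP. That probe set has the suffix _f_at, as above. A second one, with no such suffix, gave 43.6, 130, 414, 9.50 and 351, which repeated the same order of steps and was above the floor in DN3 and DP alone. It placed the 3 steps at a size of at least 3.17-fold, at least 3.17-fold and at least 2.69-fold. With the floor at the 65th percentile the 3 log2 ratios of the first probe set shrank to 0.66, -0.66 and 0.66, and none was then a call. Taf1c, Tbxa2r and Csf3r had the nearest profiles, at 0.23, 0.24 and 0.25.

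STAT dimers bind the palindrome TTCNNNGAA, and STAT6 also a wider form with 4 free bases in the middle in place of 3. Each reads the same on both strands. RefSeq start sites (GRCm38.p6) were held for 8 of the 9 members, all but Socs2, with 11 windows. TTCNNNGAA was found for Cish and Socs3, that is for 2 of 8 members, and in 8.30% of all 32851 windows of the same length or 9.55% of 27025 genes. The wider form was found in no member's window and in 6.95% of all windows. The matches are shown because both genes are feedback inhibitors with steps of at least 2-fold in these data. Cish held 2 copies that do not overlap, TTCCTGGAA and TTCTTGGAA, at bases 1 to 9 and 12 to 20 counted from the first transcribed base. The Socs3 copy, TTCTTAGAA, lay at bases -154 to -146, inside the gene's annotated span because other Socs3 transcripts start further upstream. The stretches run 5′ to 3′ on the strand of the gene with the motif in capitals, at chr9:107296409-107296678 (plus strand) for Cish and chr11:117969502-117969530 (minus strand) for Socs3.
Cish: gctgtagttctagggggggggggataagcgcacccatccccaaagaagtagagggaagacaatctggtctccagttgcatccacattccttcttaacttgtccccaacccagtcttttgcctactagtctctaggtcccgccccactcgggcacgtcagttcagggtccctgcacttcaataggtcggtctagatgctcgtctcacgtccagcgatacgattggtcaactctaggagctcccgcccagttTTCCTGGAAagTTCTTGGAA
Socs3: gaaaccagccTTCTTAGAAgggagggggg
A match of letters is a description and does not show that a STAT was bound there.

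**Figure D2:**
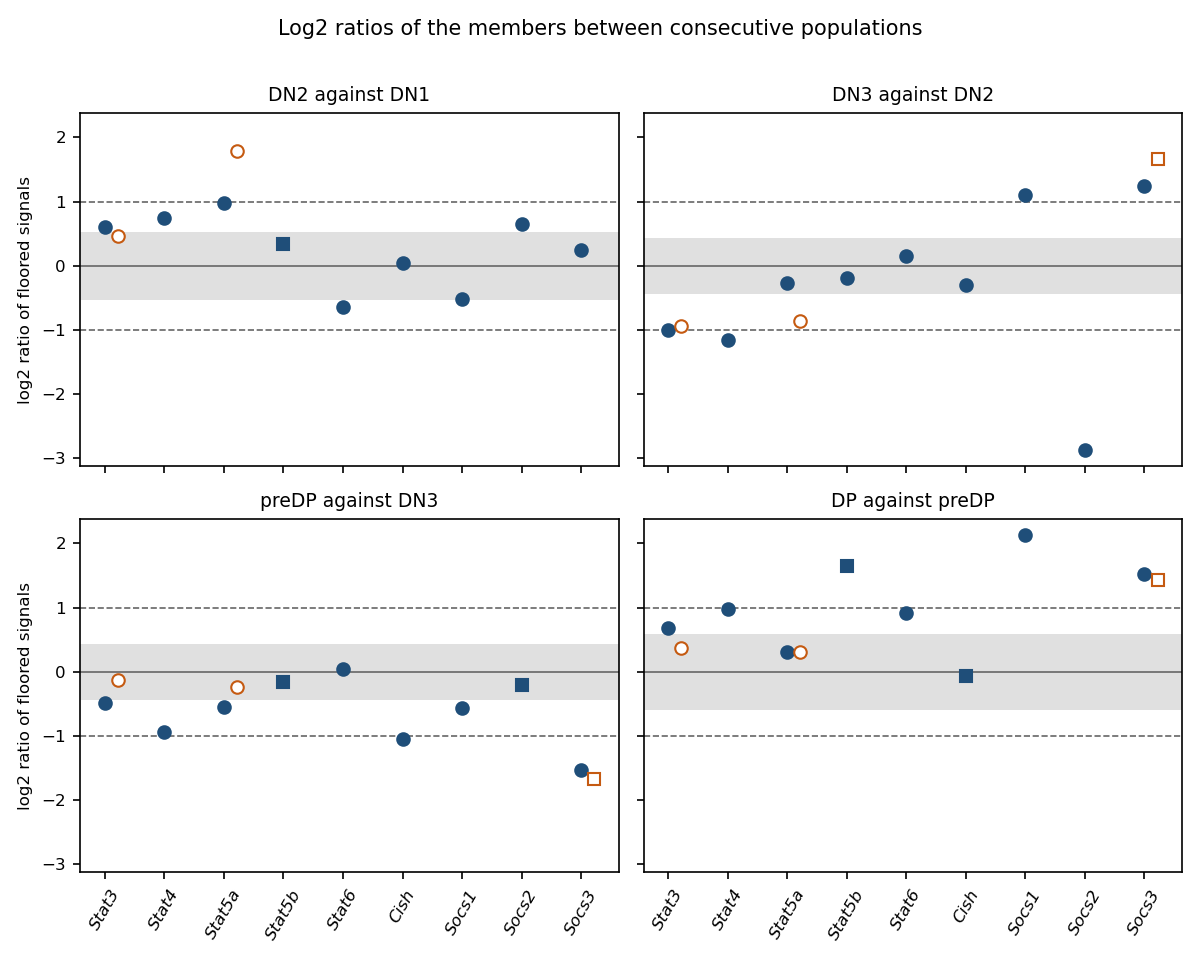
Log2 ratio of floored signals (y axis) of each member (x axis) for the 4 consecutive comparisons. Filled symbols are the probe set used and open symbols a second one, squares mark ratios in which 1 value was at or below the floor, grey bands span the probe set spread to either side of 0, and dashed lines mark 2-fold. Socs2 lies at -2.87 in DN3 against DN2 and Socs1 at 2.13 in DP against preDP.

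Set side by side, the comparisons differed in which members stood 2-fold apart. In DN2 against DN1 none of the 9 members was at least 2-fold apart in either direction by the probe set used. Of 5154 genes 4.75% were called higher and 8.56% lower. The second Stat5a probe set did pass 2-fold, at 3.45-fold higher. The nearest to a call were Stat5a at 1.97-fold and Stat4 at 1.67-fold higher, and Stat6 at 1.56-fold lower. By any amount 7 members were higher and 2 lower, with a median log2 ratio of 0.35 against 0.13 for all genes measured. The all-gene median itself moved to 0.37 when arrays were scaled to an equal median of all gene probe sets, and to -0.03 when scaled on the genes above the floor on all arrays. With those scalings 60.2% and 21.3% of the calls over all genes were higher in DN2, in place of 35.7%. Stat5a passed 2-fold in the former, with a log2 ratio of 1.22 in place of 0.98. Cish, level at 0.05, turned to -0.12 in the latter.

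In DN3 against DN2 Socs1 and Socs3 were at least 2-fold higher and Stat4 and Socs2 lower. That is 2 of 9 members in each direction, where 2.02% of 4894 genes were called higher and 3.94% lower. The SOCS genes went opposite ways at this step, with Socs2 at a log2 ratio of -2.87, Cish at -0.30, Socs1 at 1.10 and Socs3 at 1.24. Of the STAT genes 4 were lower by any amount and Stat6 was higher by 1.11-fold. The median over the members was -0.27, against 0.00 for all genes measured. Markers of other cell types differed at this step too. Of 10 dendritic cell markers measured 4 were called lower in DN3 (Cd74 8.19-fold, Itgax at least 2.86-fold, H2-Eb1 and H2-Aa), and of 7 myeloid markers 1 (Mpo, at least 11.4-fold). Of 3 erythroid markers 1 was lower (Hbb-b2, at least 4.37-fold), of 6 B-lineage markers none, and 6 of 8 T-lineage markers were higher. Of 7 natural killer and innate lymphoid markers on the array, Gzma alone was above the floor in DN2 or DN3, and it was 8.30-fold higher. None of 3 stromal and epithelial markers was called. Their part in the members' values was not tested.

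In preDP against DN3 Cish and Socs3 were called lower and no member higher, where 2.42% of 4825 genes were lower and 1.14% higher. Stat6, at 1.03-fold higher, was the only member of the 9 not lower by any amount, and the members' median was -0.54 against 0.01 for all genes. The 9 hybridisation controls spiked into each sample were also lower in preDP, all 9 of them, with a mean log2 ratio of -0.39, and all 9 were higher again in DP with a mean of 0.20. They moved together in the other comparisons as well, with means of -0.18 for DN2 over DN1, 0.23 for DN3 over DN2 and -0.18 for DP over DN3. These means are larger than the margins by which Cish passed 2-fold in preDP over DN3, at -1.05, and in DP over DN3, at -1.11, and Socs1 in DN3 over DN2, at 1.10. The part of these array-wide differences in the members' values was not tested, and no setting scaled the arrays to these controls.

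In DP against preDP Stat5b, Socs1 and Socs3 were called higher and no member lower, where 11.3% of 4857 genes were higher and 11.7% lower. Of the 8 members measured 7 were higher by any amount, Cish being the exception, and Socs2 was below the floor on both arrays. Their median was 0.94 against 0.01 for all genes measured. Stat4 at 1.96-fold, Stat6 at 1.88-fold and Stat3 at 1.61-fold higher were short of a call but beyond the probe set spread, though the second Stat3 probe set, with a log2 ratio of 0.37, was within it. In DP against DN3, which shares its arrays with the comparisons above, Stat5b and Socs1 were called higher and Cish lower, where 10.4% of 4910 genes were higher and 10.8% lower. There Stat3, Stat4, Stat5a and Socs3 differed by at most 1.18-fold, within the probe set spread. In equal-median scaling Stat6 passed 2-fold in this comparison, at a log2 ratio of 1.07 in place of 0.96, and Socs3, at -0.01, turned to 0.11.

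The receptors that feed the STATs also differed between the arrays. Of 34 listed receptor genes 28 were on the array. Of 20 measured in DN2 or DN1, 2 were called higher in DN2 and 7 lower, with a median log2 ratio of -0.72. Il7r, the interleukin 7 receptor alpha chain, was 5.06-fold and Il2ra at least 8.87-fold higher. Csf2ra, Csf2rb2 and Csf2rb, chains of receptors for granulocyte and macrophage cytokines, were among the 7 lower, beside the lower sum of myeloid markers given above. In DN3 against DN2, 6 of 15 receptors were called lower and none higher, with a median of -0.54. Of all genes 3.94% were lower and 2.02% higher, with a median of 0.00. Il7r was 2.06-fold lower, Il2ra 2.64-fold, and Il4ra, the interleukin 4 receptor alpha chain, at least 4.28-fold. In preDP against DN3, 3 of 13 were lower (Il2ra, Csf3r and Il7r) and none higher, with a median of -0.23. There 2.42% of all genes were lower and 1.14% higher, with a median of 0.01.

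**Figure D3:**
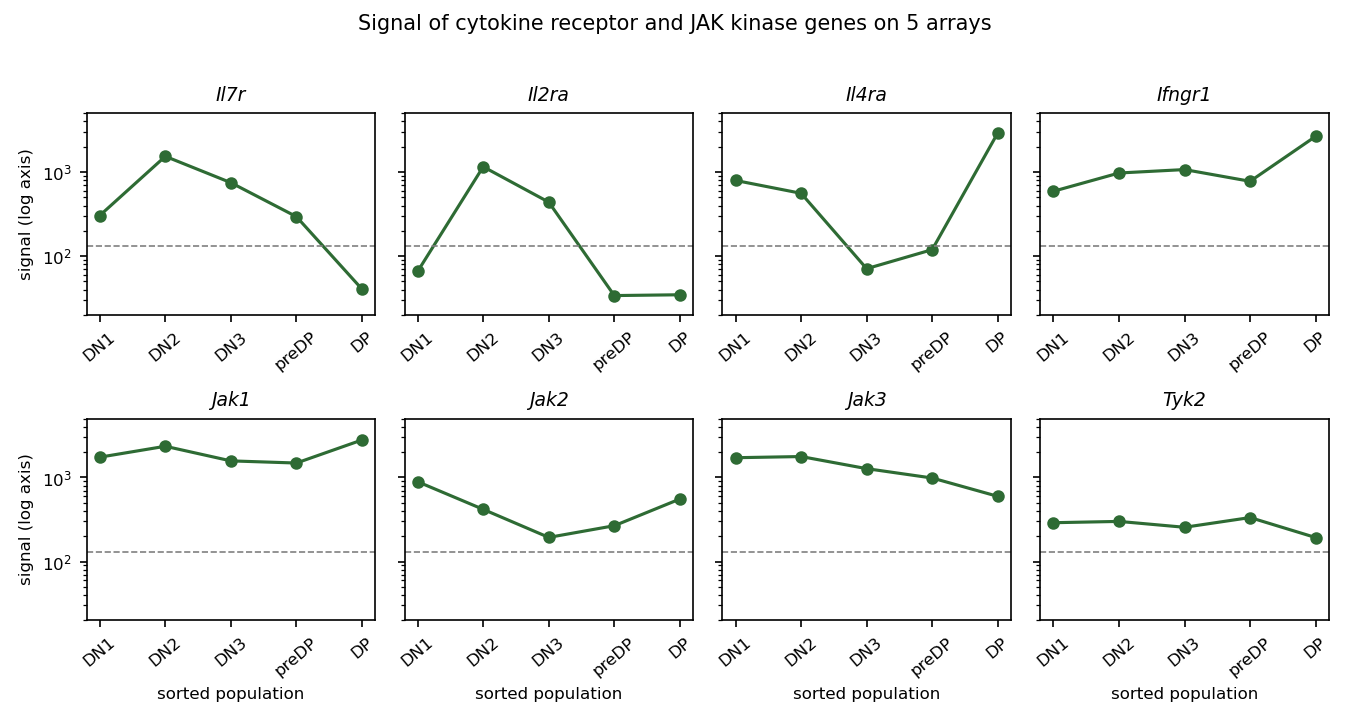
Signal (y axis, log scale, linear signal units) of 4 cytokine receptor genes in the upper row and the 4 JAK kinase genes in the lower row over the 5 sorted populations (x axis, 1 array each); the dashed line is the floor of 130.4. Il7r and Il2ra are highest in DN2, and Il4ra and Ifngr1 in DP.

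In DP against preDP the receptors divided. Of 10 measured 4 were called higher and 1 lower, with a median of 0.75. Il4ra was below the floor in DN3 and preDP and reached 2917 in DP, at least 22.4-fold higher. Ifngr1 and Ifnar1, chains of the receptors for interferon gamma and for type I interferons, were 3.43-fold and 3.48-fold higher, and Csf3r 3.11-fold. Il7r was at least 2.26-fold lower, its signal having gone from 1538 in DN2 through 748 in DN3 and 295 in preDP to 40.5 in DP. Socs1 and Il4ra were therefore both highest in DP, where Il7r was below the floor, and Socs2 was highest with Il7r and Il2ra in DN2. On other arrays these pairs parted. Socs2 was at 703 in DN1, with Il7r at 304 and Il2ra below the floor, and at 150 in DN3, with Il7r at 748 and Il2ra at 439. Socs1 was at 1229 in DN3, where Il4ra was below the floor. The panels of receptors and kinases show the opposite courses of Il4ra and Il7r.

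All 4 JAK genes were above the floor on every array. Jak1, which pairs with most receptors of this group, gave 1744, 2352, 1576, 1486 and 2794 in the order DN1 to DP and was never 2-fold apart in the comparisons made. Jak3, the kinase of the common gamma chain, gave 1719, 1775, 1274, 986 and 597, and was 2.14-fold lower in DP than in DN3. Its probe set has the suffix _s_at, which marks probes shared by several transcripts. Jak2 gave 890, 418, 194, 267 and 554, with calls of 2.13-fold lower in DN2 than DN1, 2.16-fold lower in DN3 than DN2 and 2.08-fold higher in DP than preDP. Tyk2 stayed between 193 and 334. The median log2 ratio over these 4 genes was 0.05 for DN2 over DN1, 0.15 for preDP over DN3 and 0.09 for DP over preDP, and each of these changed sign with a setting. The last ranged from -0.10 with the mean over probe sets to 0.91 with plain probe sets alone. The medians of -0.53 for DN3 over DN2 and 0.21 for DP over DN3 kept their sign under every setting, the latter reaching 0.83 with plain probe sets alone.

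The array held 10 other negative regulators, such as PIAS proteins and tyrosine phosphatases. Sh2b3, which encodes the adaptor LNK, was 2.06-fold lower in DN2 than in DN1. It was the only call among 8 there, where 8.56% of all genes were lower and 4.75% higher. None of the 8 measured in DN3 against DN2 or the 9 in preDP against DN3 was called. Of all genes 2.02% and 1.14% were called higher in these comparisons, and 3.94% and 2.42% lower. Ptprc, which encodes the phosphatase CD45, was 2.59-fold higher in DP than in preDP. It was the only call among 9 there, where 11.3% of all genes were higher and 11.7% lower. In DP against DN3 Ptprc, Pias1 and Pias2 were called higher, at 3.65-fold, 2.26-fold and 2.06-fold, and none lower. That is 3 of 9 measured, where 10.4% of all genes were higher and 10.8% lower. Socs5, the only further SOCS gene measured, was between 103 and 160 on all arrays. Of 15 cytokine genes on the array that signal through STATs, at most 3 were above the floor on any array, and Il7 was below it on all 5.

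**Figure D4:**
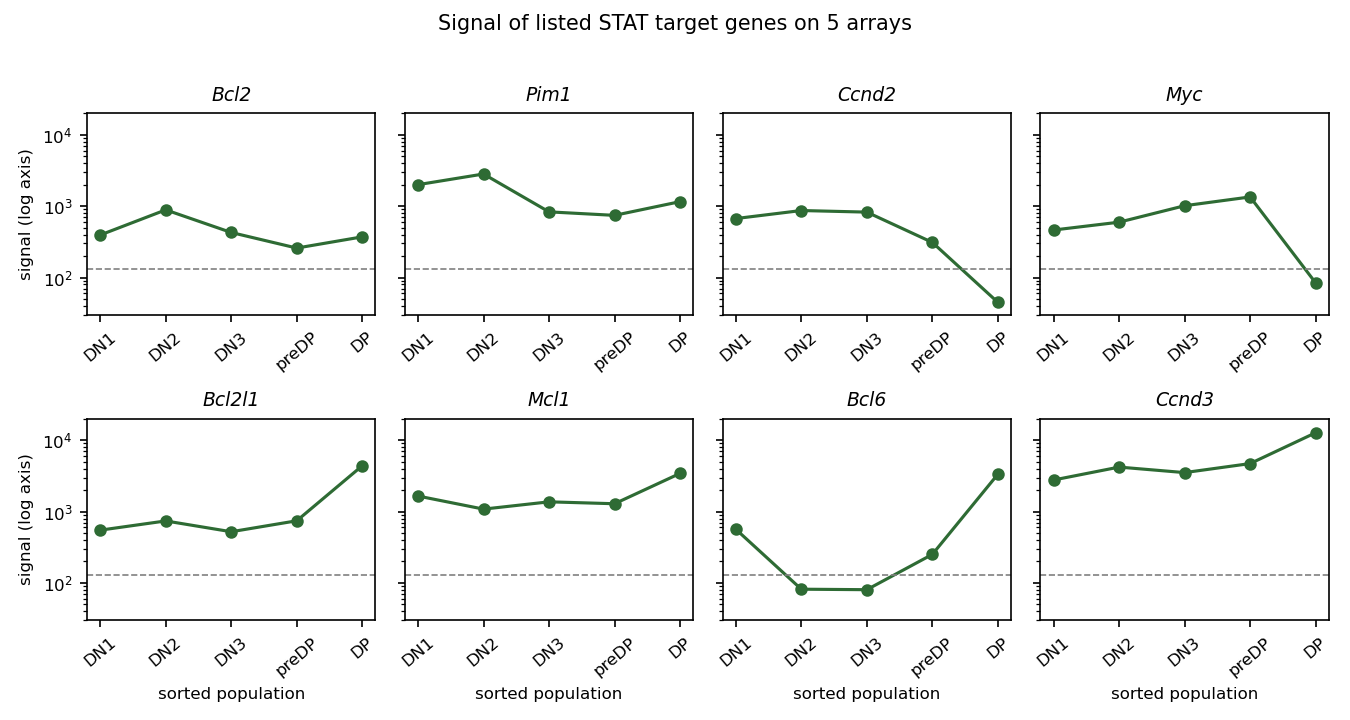
Signal (y axis, log scale, linear signal units) of 8 listed STAT target genes over the 5 sorted populations (x axis, 1 array each); the dashed line is the floor of 130.4. Bcl2 and Pim1 are highest in DN2, Ccnd2 and Myc are below the floor in DP, and Bcl2l1, Mcl1, Bcl6 and Ccnd3 are highest in DP.

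Known STAT targets outside the members were highest on different arrays. Of 18 on the array 17 were above the floor somewhere, of which 7 were highest in DN1, 3 in DN2 and 4 in DP, while preDP held 2 and DN3 1. Of 17 measured in DN2 or DN1, 2 were called higher in DN2 (Gata3 and Bcl2) and 4 lower (Ccnd1, Id2, Bcl3 and Bcl6). Over all genes 4.75% were higher and 8.56% lower. The median log2 ratio of the list was -0.08. That median was 0.17 with an equal median, 0.37 with the floor at the 65th percentile and 0.004 with plain probe sets alone, so no direction is read. In DN3 against DN2 Pim1, a survival kinase, was 3.39-fold lower and Bcl2, an inhibitor of cell death, 2.08-fold, the only calls among 12. Of all genes 3.94% were lower and 2.02% higher there. In preDP against DN3 Ccnd2, a D-type cyclin, was the only call of 14, at 2.66-fold lower. There 2.42% of all genes were lower and 1.14% higher. The list's median of -0.01 turned to 0.03 with an equal median and to 0.07 with plain probe sets alone. In DP against preDP 4 of 14 were higher and 2 lower, where 11.3% of all genes were higher and 11.7% lower. Bcl6, a transcriptional repressor, was 13.3-fold higher, Bcl2l1, which encodes the survival protein BCL-XL, 5.91-fold, Ccnd3 2.70-fold and Mcl1 2.66-fold. Myc was at least 10.3-fold and Ccnd2 at least 2.38-fold lower. The median was 0.58, but -0.02 with plain probe sets alone, so the list as a whole has no settled direction there either. The STAT target panels show 8 of the 18, among them all 7 highest in DN2 or DP, and leave out the 7 highest in DN1, such as Id2 at 4370 and Ccnd1 at 2613.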

How the data were processed

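The deposited table holds probe set signal intensities of 5 arrays on a linear scale, which the authors computed from the scans. The submitters' processing notes name MAS5 and Affymetrix Expression Console 1.0 without settings, and detection calls were not used here. The mean after trimming 2% at each end was 500.3 to 500.4 on every array, so the values hold no information on total mRNA per cell. Signal ratios of 3′ to 5′ control probe sets, read as a sign of RNA quality, differed between arrays. They ran from 2.79 (preDP) to 3.31 (DN3) for actin and from 1.39 (preDP) to 2.04 (DN1) for Gapdh. Their part in the members' values was not tested. Of 12488 probe sets, 10833 had 1 gene symbol and were not controls, for 8251 genes, and those of the others were left out. Symbols equalled those of the RefSeq table of GRCm38.p6.

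Values below the floor (50th percentile, 130.4) were set to it before log2, and the probe set with the highest mean was used for each gene. Calls were at 2-fold. Named genes are all members, listed pathway genes at least 2-fold apart (up to 4 per list and comparison) and the 3 nearest profiles of members that varied by 2-fold. Stat3 and Stat5b also varied by 2-fold, but their nearest profiles are not named. Values of other listed genes were chosen after they were seen. Members and lists were chosen with earlier results of these data known. Alternatives were quantile normalisation, median scaling, floors at the 35th and 65th percentile, a constant of 50, the mean over probe sets, plain probe sets alone and calls at 1.5-fold. The counting step was tested on simulated data. Python 3.11.15, numpy 2.4.6 and pandas 2.3.3 were used. The number of arrays limits the precision.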

Additional observations from a re-analysis of the deposited data

How the results depend on the processing

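Of 96 possible values of the 12 member calls under the alternatives, 87 stayed at 2-fold or more in the same direction, 7 fell short of it and none changed sign. The other 2, both calls of Cish, were lost with the floor at the 65th percentile, where the gene was not measured. Of 243 values for the 32 member ratios short of 2-fold, 10 passed it in the same direction. Some values in both counts could not change. For a gene with 1 plain probe set above every floor, the other floors, the mean over probe sets and plain probe sets alone return the main value. The Socs1 ratio in DN3 against DN2 was thus 1.10 under each of these. The counts therefore do not measure how robust the calls are. Plain probe sets alone gave no value for Stat5a, whose probe sets carry suffixes. Members called higher in DN2 against DN1 numbered 1 in place of 0 with an equal median or the mean over probe sets (Stat5a) and with the floor at the 35th percentile or a constant of 50 (Stat5b). With the 65th percentile, which leaves fewer genes to measure, members called higher were 1 in DN3 against DN2, DP against preDP and DP against DN3 (Socs1 each time), and members called lower were 0 in preDP against DN3 and in DP against DN3. Quantile normalisation left 1 lower in preDP against DN3 (Socs3), and the 35th percentile or the constant gave 2 lower in DP against DN3 (Cish and Socs2). In preDP against DN3 the 35th percentile gave 3 lower (Cish, Socs2 and Socs3) and the constant 2 (Socs2 and Socs3), with Socs2 at -1.70 and -1.39 in place of -0.20. At 1.5-fold, 4 members were higher and 1 lower in DN2 against DN1, and 6 were higher in DP against preDP.

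Over all genes, DN2 against DN1 had 524 higher with an equal median and 141 with the median of genes above the floor, the latter added after seeing the data; the cause was not tested. With the 35th percentile 379 were higher and 685 lower in that comparison, 209 and 317 in DN3 against DN2, and 151 and 256 in preDP against DN3. With the 65th percentile 262 were lower in DN2 against DN1, 51 higher and 101 lower in DN3 against DN2, 30 and 63 in preDP against DN3, and 350 lower in DP against DN3. At 1.5-fold, 954 were higher and 760 lower in DN2 against DN1, 355 and 509 for DN3 over DN2, 349 and 409 in preDP against DN3, 1123 and 1097 in DP against preDP, and 1024 and 1077 in DP against DN3. No paired analysis was possible because each population has 1 array. With 1 array each, error between sorts is not measured, and signals near a floor limit the folds of Stat4, Stat5b, Cish, Socs2 and Socs3.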
